A study of Mus musculus with 13 samples.

Results

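The 10 genes described here encode activin subunits, bone morphogenetic proteins (BMPs), growth differentiation factors (GDFs) and secreted proteins that bind such ligands. They were taken by name from the 36172 gene entries of the count table. The activin genes are Inhba and Inhbb, the BMP genes Bmp2, Bmp4 and Bmp6, and the GDF genes Gdf15 and Mstn. The antagonists and binding proteins are Fstl1, Fstl3 and Grem1. RNA came from left ventricle outside the ischaemic zone of C57BL/6JO1aHsd mice that were 8 to 10 weeks old when treatment began. Sham animals (n = 3 libraries) had sham surgery and no antibody. Infarcted animals had permanent ligation of the left anterior descending coronary artery (LAD), which causes myocardial infarction (MI), and received 10 mg/kg of an antibody. It was the control labelled mouse anti IgG ab (n = 5) or FG-3149, a mouse monoclonal antibody against CTGF, a matricellular protein (n = 5). All samples carry the time label 1W+6W, which the labels do not spell out. No antibody was given to sham animals, so infarction and antibody injection cannot be told apart in a comparison with sham. The labels do not say that each library is a separate animal, so p-values measure the spread between libraries.

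Activins and BMPs are dimeric ligands of the TGF-β superfamily. They bring together type I and type II serine/threonine kinase receptors on the cell surface. Activin and myostatin receptors phosphorylate SMAD2 and SMAD3, and BMP receptors phosphorylate SMAD1, SMAD5 and SMAD9, which enter the nucleus with SMAD4. Extracellular antagonists such as follistatin-like proteins, gremlins and chordin bind ligands and limit their access to receptors. In the heart the family is known for roles in valve and chamber development, in fibrosis after injury and in the control of muscle mass.

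Sham libraries held between 12025880 and 14999813 estimated counts, IgG libraries between 13084735 and 17567238, and FG-3149 libraries between 10954922 and 12794823. Levels are given as CPM, counts scaled to a common library total. As a check of the tissue label, Myh6, the cardiac myosin heavy chain gene, was at 20933 CPM or more in every library, and the skeletal myosin genes Myh1, Myh2 and Myh4 stayed at 0.917 CPM or less. Other tissue was measurable in some infarcted libraries. Myl4, an atrial myosin light chain gene, was at 21.5 and 30.7 CPM in IgG replicates 4 and 5 and at 1.22 to 3.40 CPM elsewhere. Cfd, an adipocyte gene, was at 32.7 CPM in IgG replicate 5 and 29.8 CPM in FG-3149 replicate 3, and at 3.42 CPM or less elsewhere. Upk3b, a mesothelial gene, was at 0.17 CPM or less in sham, at 2.15 to 4.21 CPM in IgG replicates 1, 2, 4 and 5, at 3.97 CPM in FG-3149 replicate 2 and at 21.9 CPM in FG-3149 replicate 3. The 8 mesothelial and epicardial markers summed to 4.53 to 5.88 CPM in sham, 6.31 to 19.5 CPM with IgG and 6.23 to 52.7 CPM with FG-3149. The part of this tissue in the values below was not tested. Fewer cells of a type and less RNA per cell cannot be told apart in bulk tissue.

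Of the 10 genes, 8 had counts above 0 and 7 had enough counts to be tested. Mstn, with 1 to 13 counts a library, did not pass the filter on low counts, Grem1 was listed at 0 in all 13 libraries, and Bmp2 has no transcript entry in the table and is not analysed here. After infarction with IgG, 5 of the 7 tested genes rose against sham: Inhba, Bmp4, Gdf15, Fstl1 and Fstl3. None fell, and Inhbb and Bmp6 did not pass. No sham library of Inhba reached the level the filter asks for. The filter asks it of as many libraries as the smallest group holds, and for Gdf15 not every sham library reached it. Inhba and Gdf15 were thus tested because of their infarcted libraries, and their place in these counts is not independent of their rise. Among all 13434 genes tested with edgeR's quasi-likelihood test, 33.7% were called at an adjusted p under 0.05, 17.8% as higher and 15.9% as lower. In the same 5 genes no IgG library overlapped a sham library, which held in the higher direction for 18.2% of all genes and in either direction for 35.8%. The median log2 fold change was 1.34 over the 7 genes and -0.00 over all genes. The 10 genes were chosen with earlier results of these data known, so their excess over all genes is not independent support. With FG-3149 the same 5 genes rose against the same sham libraries, where 29.5% of all genes were called, 15.6% as higher and 13.9% as lower. With the replicate number as a block, 4 of them were called and Inhba was not. These groups did not overlap either (16.6% of all genes in the higher direction, 32.2% in either). Both comparisons share the sham libraries and are not independent. Between the infarcted groups, 0 of the 7 genes were called, against 1.07% of all genes.

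**Figure D1:**
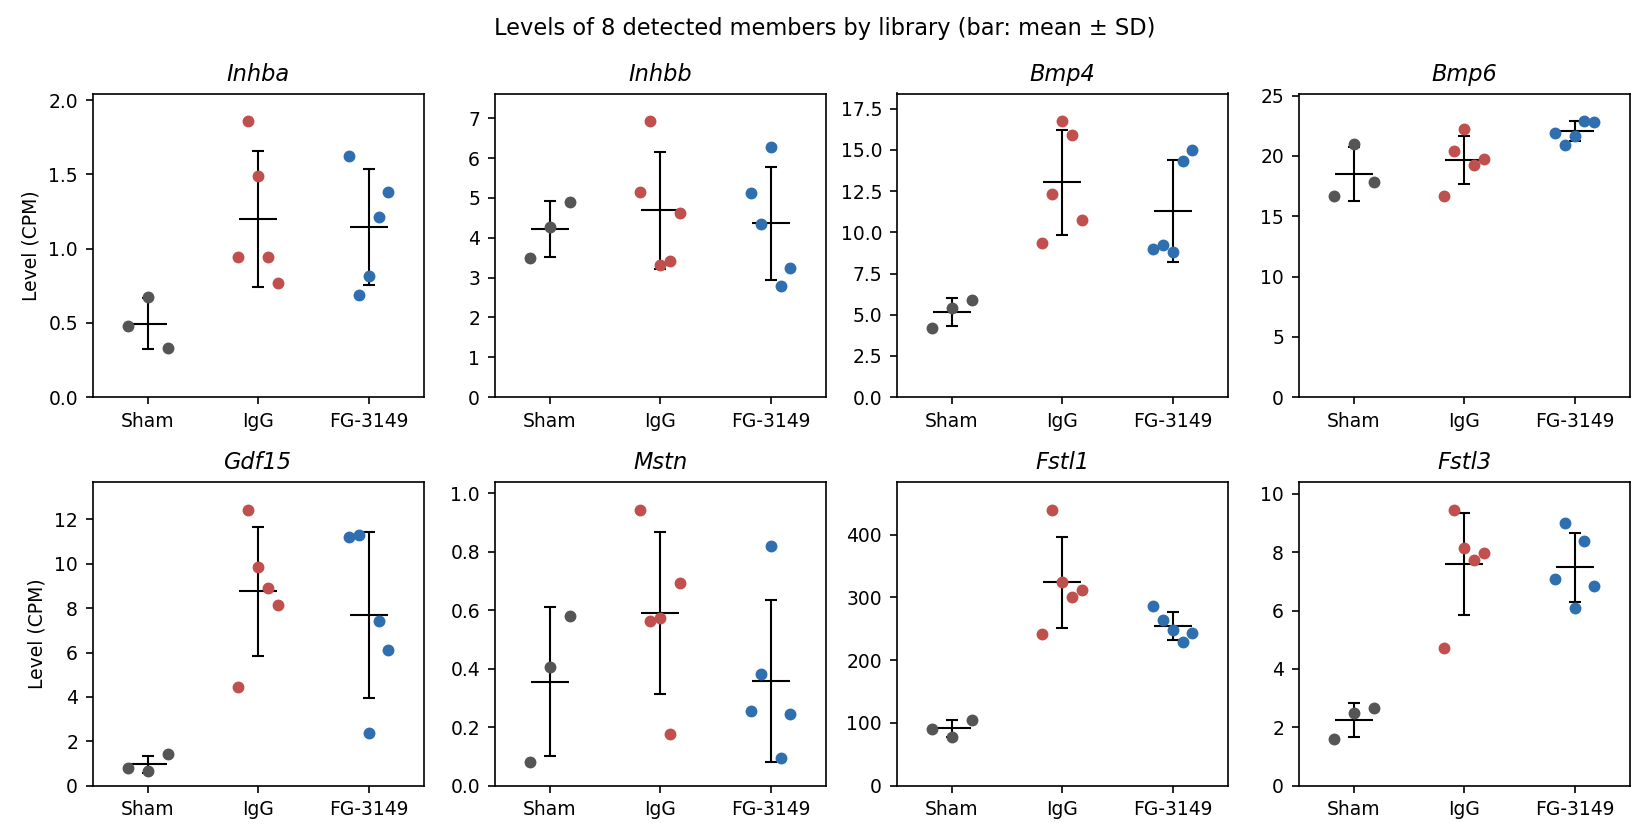
Level in CPM (y axis, from 0) of the 8 detected genes in each library of the sham, MI + IgG and MI + FG-3149 groups. Points are libraries and bars the mean ± SD. For Fstl1 the 3 sham libraries sit between 78.1 and 105 CPM, below every infarcted library, whereas for Inhbb the groups overlap.

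Levels of different genes are comparable only per length, so their order was taken from the deposited RPKM values, which divide reads by transcript length and library size. In sham, Fstl1 was highest with 25.3 ± 3.99 RPKM (SD, n = 3). Bmp6 followed with 7.66 ± 0.826 RPKM and Bmp4 with 2.59 ± 0.423 RPKM. Fstl3 at 1.15 ± 0.287, Inhbb at 0.989 ± 0.163 and Gdf15 at 0.886 ± 0.367 RPKM lay within each other's spread. Inhba at 0.323 ± 0.109 and Mstn at 0.132 ± 0.0948 RPKM were lowest. With IgG the order differed below Fstl1, which reached 90.5 ± 20.2 RPKM (SD, n = 5). Bmp6 at 8.23 ± 0.783, Gdf15 at 8.15 ± 2.71 and Bmp4 at 6.60 ± 1.64 RPKM then lay within each other's spread, so Gdf15 stood beside the BMP genes, which it was below in sham. Fstl3 was at 3.93 ± 0.894, Inhbb at 1.11 ± 0.350, Inhba at 0.793 ± 0.300 and Mstn at 0.221 ± 0.104 RPKM. Inhbb and Inhba, both low, did not differ beyond their spread.

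**Figure D2:**
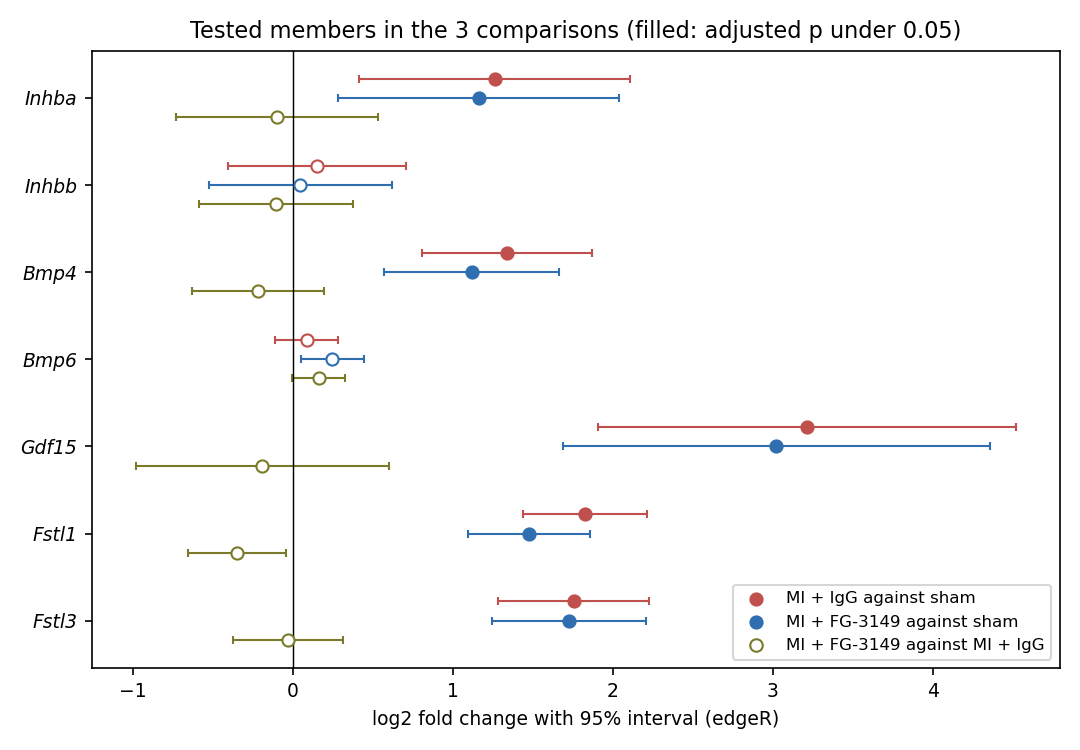
Log2 fold change (x axis) of the 7 tested genes with its 95% interval from edgeR, in MI + IgG against sham (red), MI + FG-3149 against sham (blue) and MI + FG-3149 against MI + IgG (olive). Filled points passed an adjusted p of 0.05. Gdf15 has the widest intervals, from 1.91 to 4.52 for IgG against sham, and every olive point is open.

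Promoter sequence was available from RefSeq (GRCm38.p6, the coordinates of mm10, which the labels name) for 9 of the 10 genes, as windows of 250 bases before to 50 after an annotated start. Of the genes that rose, Bmp4, Inhba and Gdf15 had a match to a searched motif. For Bmp4 and Inhba the 250 bases before the start are shown, a choice made with the variation of Bmp4 with a clock gene (below) known. The Gdf15 match lies in an annotated exon of another transcript and is not shown. They lie at chr14:46390670-46390919 (minus strand) and chr13:16011601-16011850 (plus strand), upstream of both genes, and capitals mark the match. The Inhba window also lies in an intron of the antisense pseudogene B230303A05Rik.
Bmp4: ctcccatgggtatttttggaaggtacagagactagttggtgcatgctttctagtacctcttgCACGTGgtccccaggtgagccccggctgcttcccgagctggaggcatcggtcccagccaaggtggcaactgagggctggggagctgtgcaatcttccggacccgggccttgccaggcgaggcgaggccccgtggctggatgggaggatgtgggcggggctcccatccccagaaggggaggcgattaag
Inhba: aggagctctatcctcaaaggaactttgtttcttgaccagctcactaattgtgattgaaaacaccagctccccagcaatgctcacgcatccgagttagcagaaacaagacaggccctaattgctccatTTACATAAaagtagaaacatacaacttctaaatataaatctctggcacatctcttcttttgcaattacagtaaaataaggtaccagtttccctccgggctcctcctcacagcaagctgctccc
In Bmp4 the capitals are an E-box, CACGTG, at -188 to -183 from the start, a motif bound by CLOCK and ARNTL among other factors, which 7.15% of all 32851 windows held. In Inhba they are a D-box on the minus strand at -123 to -116, a motif bound by DBP and related factors and searched as TTANGTAA, which 2.32% of all windows held. The RefSeq start lies 70 bases upstream of the start in the count table for Bmp4 and 2624 bases upstream for Inhba. Other matches were an E-box in Bmp6 at -127 to -122, and an E-box at -83 to -78 with a TEAD motif (GGAATG, in 14.7% of windows) at -137 to -132 before the second of the RefSeq starts of Gdf15. Mstn held an AP-1 motif (TGANTCA, in 7.81%) at -170 to -164, and Grem1 held the motif GGCGCC (11.9%), bound by SMAD1 and SMAD5, at -78 to -73. No searched motif, the C/EBP-ATF response element TGATGNAA (3.97%) included, was found in the windows of Inhbb, Fstl1 and Fstl3. Both strands were searched, and a match describes letters in a window and shows no binding. Inhba, which holds the D-box, had a group-centred correlation of 0.15 with Dbp and 0.016 with Arntl over the 13 libraries. Of the genes with an E-box, Bmp4 had 0.95 with Dbp, Bmp6 0.48 and Gdf15 0.22. The part of the clock in these genes was not tested.

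Inhba encodes the βA subunit shared by activin A and inhibin A. It was at 0.477, 0.677 and 0.331 CPM in the sham libraries, and at 0.944, 1.86, 1.49, 0.944 and 0.768 CPM in IgG replicates 1 to 5. In the FG-3149 libraries it was at 1.62, 0.687, 0.819, 1.21 and 1.38 CPM. The highest sham library lay just below the lowest infarcted library of each group, 0.677 against 0.687 and 0.768 CPM. Inhba rose by log2 1.26 ± 0.41 (SE) with IgG (edgeR adjusted p = 0.0219) and by 1.16 ± 0.42 with FG-3149 (edgeR adjusted p = 0.0439). These calls rest on 4 to 33 counts a library. The IgG call was lost in 5 of 22 alternative settings, among them without sham replicate 1 (edgeR adjusted p = 0.0739), sham replicate 3 (0.0959) and IgG replicate 2 (0.0583), and the FG-3149 call in 12 of 22, where the adjusted p ranged from 0.0266 to 0.151. The replicate number as a block was among these 12 (edgeR adjusted p = 0.0587).

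Inhbb encodes the βB subunit of activin B and inhibin B. Its sham libraries were at 3.50, 4.27 and 4.89 CPM. With IgG it was at 5.16, 6.93, 3.33, 3.42 and 4.61 CPM, and with FG-3149 at 5.13, 4.35, 6.28, 2.79 and 3.25 CPM. All 3 groups overlapped, and both infarcted groups reached above and below the sham range. The log2 difference from sham was 0.15 with a 95% interval of -0.41 to 0.71 for IgG and 0.05 (-0.53 to 0.62) for FG-3149, and neither passed (edgeR adjusted p = 0.693 and 0.916). The coefficient of variation was 16.5% in sham, 31.5% with IgG and 32.3% with FG-3149.

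Bmp4 encodes a BMP ligand that acts in mesoderm and endocardial cushion development. The sham libraries held it at 4.21, 5.42 and 5.88 CPM. IgG replicates 1 to 5 were at 9.37, 12.3, 16.7, 15.9 and 10.8 CPM, and the FG-3149 libraries at 8.98, 9.24, 8.82, 14.3 and 15.0 CPM. Every infarcted library was above every sham library. Bmp4 rose 2.53-fold with IgG, by log2 1.34 ± 0.25 (SE, edgeR adjusted p = 0.00096), and by log2 1.12 ± 0.26 with FG-3149 (edgeR adjusted p = 0.00493). Both calls held in all 23 alternatives, with log2 values of 1.06 to 1.43 and 0.80 to 1.22. Of its 4 exons, the 2 with enough sham counts rose alike with IgG, 2.40-fold and 2.80-fold by mean CPM.

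Within the infarcted groups Bmp4 varied with Dbp, a transcription factor gene at the output of the circadian clock. Dbp was the gene most like Bmp4 by the correlation of log2 CPM after subtracting group means, r = 0.95 over 13 libraries. This is the highest of all correlations with tested genes at a mean log2 CPM of 3 or more, so it describes the libraries and carries no test. Arntl, the clock factor gene also known as Bmal1, had r = -0.71 with Bmp4. In FG-3149 replicates 4 and 5, where Arntl was at 2.98 and 2.76 CPM, Bmp4 was at 14.3 and 15.0 CPM, whereas in replicates 1 to 3, with Arntl at 13.8, 15.0 and 18.5 CPM, it was at 8.82 to 9.24 CPM. In the IgG group the 3 libraries with Arntl under 5 CPM had Bmp4 at 10.8 to 16.7 CPM and the other 2 at 9.37 and 12.3 CPM, so these overlapped. Dbp itself rose against sham by log2 2.68 ± 0.50 (SE) with IgG (edgeR adjusted p = 0.0024) and 2.96 ± 0.51 with FG-3149 (0.00187). Without the 5 libraries with Arntl under 5 CPM, Bmp4 still rose in both comparisons. The infarcted libraries kept there had Dbp at 58.7 to 85.2 CPM and Arntl at 13.8 to 18.5 CPM. Sham libraries had Dbp at 11.7 to 17.1 CPM and Arntl at 31.7 to 37.4 CPM. This setting therefore does not remove the difference in these clock genes from sham. Inhbb ran the other way, with r = -0.81 with Dbp and 0.79 with Arntl, a pair of values looked up after the Bmp4 pattern was seen. It was at 2.79 and 3.25 CPM in FG-3149 replicates 4 and 5 and at 4.35 to 6.28 CPM in the other 3. For the other 5 tested genes, r with Dbp lay between -0.17 and 0.48. The labels give no time of day for tissue collection, and its part in these values was not tested.

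**Figure D3:**
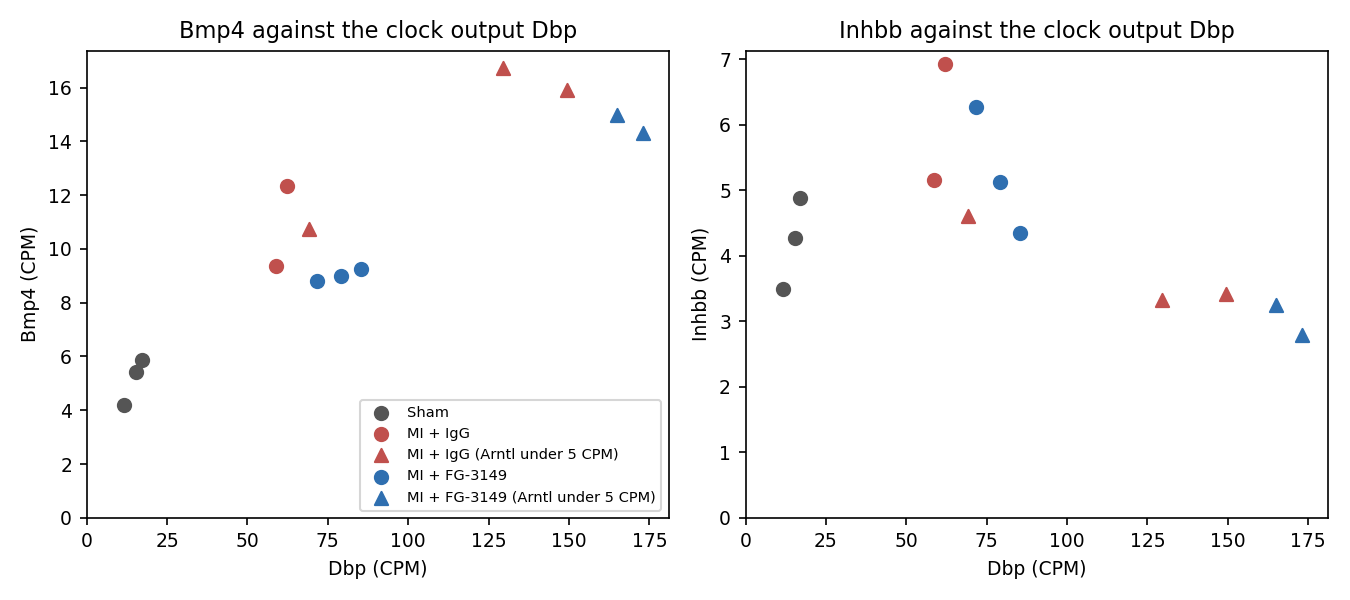
Bmp4 (left) and Inhbb (right) in CPM on the y axis against Dbp in CPM on the x axis, one point per library. Triangles are the 5 infarcted libraries with Arntl under 5 CPM. The 2 FG-3149 triangles have Bmp4 at 14.3 and 15.0 CPM and Inhbb at 2.79 and 3.25 CPM, while the 3 FG-3149 circles have Bmp4 at 8.82 to 9.24 CPM.

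Bmp6, a BMP ligand known for its part in iron homeostasis, did not pass in any of the 3 comparisons. It was at 16.7, 21.0 and 17.8 CPM in sham, at 16.7, 20.4, 22.2, 19.3 and 19.7 CPM with IgG and at 21.9, 20.9, 21.6, 22.9 and 22.9 CPM with FG-3149. The FG-3149 libraries sat at the top of the range but overlapped both other groups. The log2 difference was 0.09 (95% interval -0.11 to 0.28) for IgG against sham and 0.25 (0.05 to 0.45) for FG-3149 against sham, the latter just outside the threshold (edgeR adjusted p = 0.0554). It passed in 3 of 23 alternatives, with adjusted p from 0.0235 to 0.308.

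Gdf15 encodes a stress-induced circulating ligand that signals through GFRAL in the hindbrain. It showed the largest fold change of the 7 genes. Sham libraries were at 0.795, 0.677 and 1.41 CPM. With IgG the values were 4.43, 12.4, 9.86, 8.90 and 8.14 CPM, and with FG-3149 11.2, 11.3, 2.37, 7.44 and 6.10 CPM. All infarcted libraries lay above sham, with FG-3149 replicate 3 and IgG replicate 1 the nearest to it. Gdf15 rose 9.29-fold with IgG, by log2 3.22 ± 0.59 (SE, edgeR adjusted p = 0.00169), and by log2 3.02 ± 0.61 with FG-3149 (edgeR adjusted p = 0.00359). The calls were lost without the 5 libraries with Arntl under 5 CPM, which leaves 2 IgG and 3 FG-3149 libraries, at log2 3.18 (adjusted p = 0.0678) and 3.14 (0.0578). The coefficient of variation within the groups was 33.3% to 48.8%. Gdf15 passed the filter on low counts only through its infarcted libraries. Gfral, the receptor gene, was listed at 0 in all 13 libraries and so did not pass the filter on low counts. The value alone does not tell a gene without reads from one that was not counted.

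Mstn encodes myostatin, a negative regulator of muscle mass made mainly in skeletal muscle. Its counts were 1, 6 and 7 in sham, 13, 10, 10, 3 and 9 with IgG and 3, 5, 9, 1 and 3 with FG-3149. The groups overlapped, and the gene was not tested because it did not pass the filter on low counts. Grem1 encodes gremlin 1, a BMP antagonist. At 0 counts in every library, up to 0.171 to 0.274 CPM is allowed by a floor of 3 counts a library, which covers counting error only.

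Fstl1 encodes follistatin-like 1, a secreted glycoprotein of fibroblasts and epicardium that binds BMP4 among other ligands. It was the most abundant of the 8 detected genes. Sham libraries were at 90.6, 78.1 and 105 CPM, IgG replicates 1 to 5 at 241, 440, 325, 301 and 312 CPM, and FG-3149 replicates at 286, 264, 248, 229 and 243 CPM. No infarcted library came near the sham range, and IgG replicate 2 was highest. Fstl1 rose 3.55-fold with IgG, by log2 1.83 ± 0.18 (SE, edgeR adjusted p = 1.66e-05), and by log2 1.48 ± 0.17 with FG-3149 (edgeR adjusted p = 0.000115). Both calls held in all 23 alternatives. All 11 exons were higher by mean CPM with IgG than in sham, from 2.34-fold to 4.40-fold.

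Fstl3 encodes follistatin-like 3, which binds and blocks activins and myostatin. It was at 1.59, 2.51 and 2.65 CPM in sham, at 4.72, 9.46, 8.14, 7.72 and 7.99 CPM with IgG, and at 7.10, 9.01, 6.10, 8.37 and 6.83 CPM with FG-3149. The groups with infarction did not overlap sham and overlapped each other. Fstl3 rose 3.38-fold with IgG, by log2 1.76 ± 0.23 (SE, edgeR adjusted p = 1.54e-05), and by log2 1.73 ± 0.23 with FG-3149 (edgeR adjusted p = 4.12e-05). Inhba, a subunit of a ligand that it binds, was called higher in the same comparisons.

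The last exon of Fstl3 (chr10:79781432-79782630) overlaps the antisense gene Prss57 by 1157 bases, and the gene values depend on how reads there were shared. The sum of the Fstl3 exons was 1.32 to 1.80 times the Fstl3 gene count, while for the other 7 detected genes the exons summed to the gene count. Prss57 rose by log2 1.71 ± 0.21 (SE) with IgG (edgeR adjusted p = 7.27e-06). Summed over all exons, Fstl3 averaged 3.31 ± 0.393 CPM in sham, 11.6 ± 2.43 CPM with IgG and 10.8 ± 1.36 CPM with FG-3149 (SD). Exons 1 to 4, which Prss57 does not overlap, gave 0.751 ± 0.552, 2.98 ± 0.917 and 3.57 ± 0.821 CPM. Both counts were called higher than sham in both infarcted groups. The count from exons 1 to 4 rests on 3, 10.0 and 16.1 estimated counts in the sham libraries. For the comparison of the antibodies the exons 1 to 4 gave log2 0.25, against -0.03 for the gene count, and neither was called.

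The comparison of FG-3149 with IgG asks whether blocking CTGF altered these genes in infarcted hearts. None of the 7 passed, where 144 of all genes did, 123 higher (0.916%) and 21 lower (0.156%). DESeq2 also called 0 of the 7. Fstl1 was the single gene of the 7 with an unadjusted p under 0.05, at log2 -0.35 ± 0.14 (SE) with a 95% interval of -0.65 to -0.04 (edgeR unadjusted p = 0.0285, adjusted p = 0.297). Its mean was 254 ± 21.7 CPM with FG-3149 and 324 ± 72.4 CPM with IgG, and the groups overlapped. Without IgG replicate 2 the log2 difference was -0.21. The others had intervals of -0.73 to 0.53 for Inhba, -0.59 to 0.38 for Inhbb, -0.63 to 0.19 for Bmp4, -0.01 to 0.33 for Bmp6, -0.98 to 0.60 for Gdf15 and -0.37 to 0.31 for Fstl3. All 7 intervals lay within a log2 difference of 1 in either direction, which does not show that the groups were equal. No gene of the 7 had groups that did not overlap, which held for 3.14% of all genes, 1.9% higher and 1.24% lower.

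The libraries of the 2 antibody groups differed in read position. Over 6671 genes with at least 3 exons, the median share of exon reads in the 5′ exon ran from 0.647% to 0.786% over the sham libraries, from 0.800% to 1.34% over IgG and from 1.93% to 2.31% over FG-3149, so FG-3149 stood apart from both. This difference and the antibody cannot be told apart. In Bmp6 the 5′ exon averaged 2.15 CPM in sham, 2.52 with IgG and 3.98 with FG-3149. Counted without that exon, Bmp6 gave log2 0.14 for FG-3149 against sham (edgeR adjusted p = 0.308) and 0.07 against IgG, lower than the 0.25 and 0.16 of the whole gene. In Fstl1 the 5′ exon was 2.34 times the IgG level with FG-3149 by mean CPM, while exons 3 to 11 were 0.695 to 0.840 times that level. No call of the other genes was lost without the 5′ exon.

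**Figure D4:**
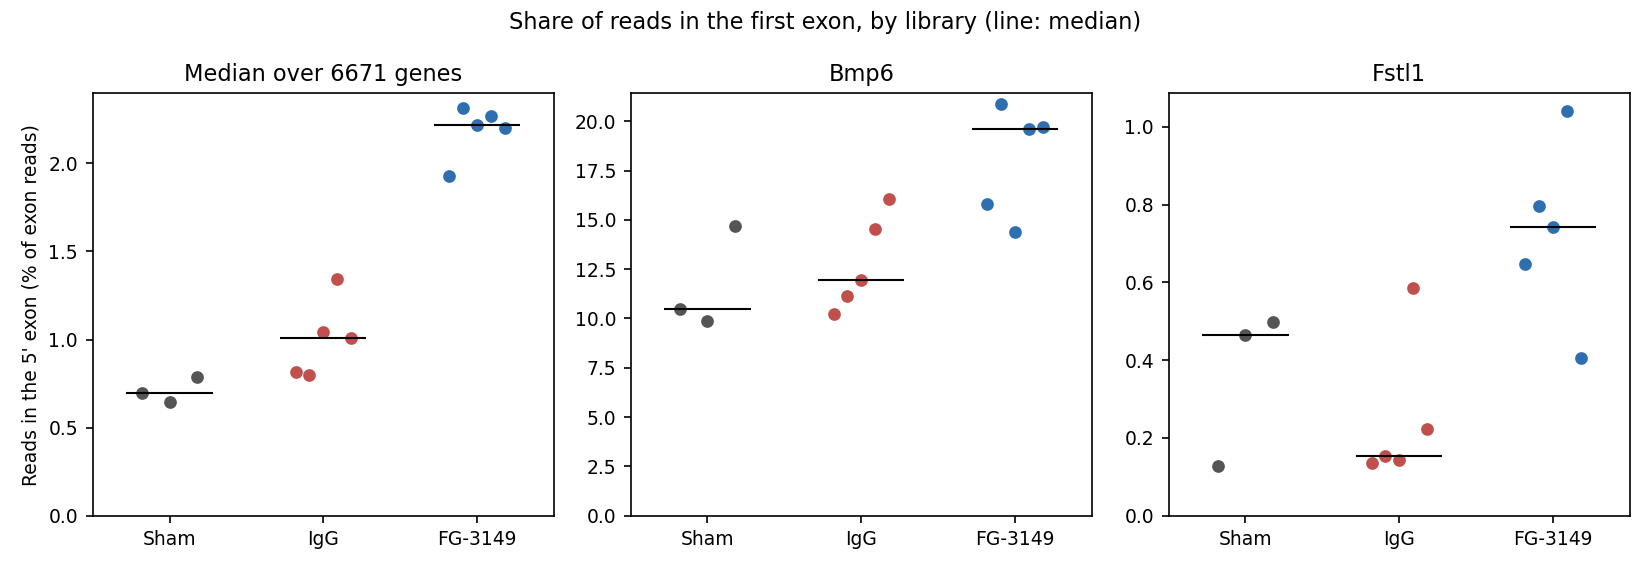
Share of exon reads in the 5′ exon (y axis, %, from 0) in each library, as the median over 6671 genes (left), for Bmp6 (middle) and for Fstl1 (right). Lines are group medians. In the left panel FG-3149 libraries sit at 1.93% to 2.31%, above the 0.647% to 1.34% of all other libraries.

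Markers of some cell types moved with infarction. Of 10 endothelial markers, 1 rose, 2 fell and 7 were not called with IgG, beside 33.7% of all genes called in either direction. Of 10 smooth muscle and pericyte markers, 4 rose, 1 fell and 5 were not called. The 10 activated fibroblast markers summed to 91.9 to 99.9 CPM in sham, 1047 to 2059 CPM with IgG and 668 to 1071 CPM with FG-3149. Of these, 9 were tested and 8 rose with IgG, and Acta2 has no transcript entry. The 10 resting fibroblast markers summed to 2483 to 2631, 3563 to 4762 and 3498 to 4018 CPM in the same groups, and 7 rose with IgG, with 1 lower. Macrophage markers, 9 of 10 in the table, summed to 340 to 351, 458 to 693 and 482 to 783 CPM, and the 10 cardiomyocyte markers to 84879 to 92790, 71946 to 77572 and 75345 to 83888 CPM. The cardiomyocyte markers did not move together. With IgG 5 of them fell, 1 rose and 4 were not called, beside 15.9% of all genes lower and 17.8% higher. Postn, which marks activated fibroblasts, had group-centred r = 0.86 with Fstl1, 0.77 with Fstl3, 0.71 with Gdf15 and 0.01 with Bmp4 over 13 libraries that share their depth and tissue. The part of cell makeup in the changes was not tested.

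Genes most like each of the 7 were named by the same group-centred correlation over 13 libraries. Fstl1 was most like the matrix and secretory genes Mfap5 (r = 0.95), Ptgis (0.94) and Bgn (0.93). Fstl3 was most like Man2b2 (0.90), Ankrd1 (0.90), a stretch-responsive cardiomyocyte gene, and Dbndd2 (0.88). For Gdf15 they were Sbno1 (0.90), Sumf1 (0.89) and Ctgf (0.89), the gene of the antibody's target. Inhbb was most like the complement gene C3 (0.95), Phc2 (0.91) and Vasp (0.89), and Bmp4 came after Dbp nearest to Fam160b2 (0.94) and Nln (0.92). Inhba was nearest to Carm1 (0.93), Ssr2 (0.91) and Dmap1 (0.90), and Bmp6 to Fam20c (0.91), Pon2 (0.88) and Paf1 (0.87). Among the 7 genes themselves the highest value was 0.69 for Gdf15 with Fstl3 and the lowest -0.66 for Inhbb with Bmp4.

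The rest of the pathway was read from a list of 88 further genes, of which 57 were tested. This list was also chosen with earlier results of these data known. With IgG, 18 rose and 5 fell against sham, where 17.8% of all genes were called higher and 15.9% lower. With FG-3149, 15 rose and 5 fell, beside 15.6% and 13.9% of all genes. The median log2 change was 0.09 and 0.05, against -0.00 over all genes in both comparisons. Between the antibodies 0 of the 57 were called by edgeR, and 5 had an unadjusted p under 0.05.

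Of 23 other ligands, 8 were tested and 3 rose with IgG, where 17.8% of all genes were called higher and 33.7% in either direction. Gdf6, a GDF of joint and skeletal development, was at 0.318, 0.677 and 0.663 CPM in sham and at 0.871, 4.84, 3.84, 3.48 and 3.53 CPM with IgG. It rose by log2 2.57 ± 0.48 (SE, edgeR adjusted p = 0.000697). No sham library of Gdf6 reached the filter on low counts, so Gdf6 was tested because of its infarcted libraries. Lefty1, an inhibitor of NODAL signalling, rose by log2 1.64 ± 0.34 (adjusted p = 0.0012), and Gdf10 by 1.27 ± 0.37 (0.0128). Lefty1, at 0.636, 0.677 and 1.08 CPM in sham, also passed this filter only through infarcted libraries. The places of Gdf6 and Lefty1 in the count of ligands that rose are thus not independent of their rise. Gdf10 did not pass with FG-3149, at log2 0.77 (0.145). Bmp7, often described as antifibrotic, had log2 -0.70 with IgG and was not called (0.0617).

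Of 12 tested receptors and co-receptors, 2 rose and 2 fell with IgG, beside 33.7% of all genes called in either direction. Bmpr2, a BMP type II receptor gene, has no transcript entry in the count table and is not analysed here. Bambi, a pseudoreceptor that lacks the kinase domain, rose from 12.1 ± 1.78 CPM to 20.0 ± 2.20 CPM, by log2 0.72 ± 0.11 (SE, edgeR adjusted p = 6.24e-05). Acvrl1, the endothelial type I receptor ALK1, rose by log2 0.39 ± 0.08 (0.000949). Acvr2a, an activin type II receptor, fell by 0.39 on the log2 scale (SE 0.08, adjusted p = 0.0014). It overlaps Orc4. Hfe2, which encodes the BMP co-receptor hemojuvelin, fell by 0.45 (SE 0.08, adjusted p = 0.000334) from 330 to 343 CPM in the sham libraries to 223 to 274 CPM with IgG. The FG-3149 libraries held 264, 279, 360, 297 and 294 CPM, a log2 difference of 0.28 ± 0.07 from IgG (adjusted p = 0.0688). That difference passed with DESeq2 (0.0157), without IgG replicate 1 (0.0235) and without FG-3149 replicate 1 (0.0308).

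Of 11 tested antagonists beyond the 10 genes, 3 rose and none fell with IgG, beside 33.7% of all genes called in either direction. Nbl1, a DAN-family BMP antagonist, was at 12.4 CPM or less in sham and 30.2 to 53.2 CPM with IgG, and rose by log2 1.67 ± 0.18 (SE, edgeR adjusted p = 1.7e-05). Chrdl1, chordin-like 1, was at 0.331 CPM or less in sham and 0.799 to 1.69 CPM with IgG, and its log2 value of 2.77 ± 0.75 (adjusted p = 0.0097) rests on few counts. Chrdl1 too passed the filter on low counts only through infarcted libraries. Chrd, which encodes chordin and overlaps Thpo, rose by log2 0.64 ± 0.24 (0.0426). Crim1 was not called (log2 0.17, 0.12).

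Among the 13 SMADs and regulators, 5 rose and 2 fell with IgG, beside 17.8% and 15.9% of all genes. The inhibitory SMAD genes Smad6 and Smad7 rose by log2 0.61 ± 0.17 (SE, edgeR adjusted p = 0.0113) and 0.53 ± 0.13 (0.00538), with Smad1 at 0.44 ± 0.11 (0.00385) and the SMAD repressor gene Ski at 0.32 ± 0.07 (0.00229). In Smad1, Smad6 and Smad7 the IgG libraries overlapped sham, and in Ski they did not. The genes that fell, named after their values were seen, were Smad3, of the activin branch, by 0.45 on the log2 scale (SE 0.15, edgeR adjusted p = 0.037) and Smad5, of the BMP branch, by 0.20 (SE 0.06, 0.0213). With FG-3149 Smad5 fell by 0.31 (0.00133), and Smad3 was not called (log2 -0.31, 0.15). With FG-3149 the log2 change of Smad6 against sham was 0.98 ± 0.17 and that of Smad7 0.73 ± 0.13. The direct comparison of the antibodies called neither, with log2 0.37 for Smad6 (adjusted p = 0.235) and 0.20 for Smad7 (0.436). Smad6 was at 12.8 to 16.2 CPM with FG-3149 and at 7.12 to 14.1 CPM with IgG.

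Of 6 tested genes known as BMP targets, 4 were called higher with IgG and 5 with FG-3149, beside 17.8% and 15.6% of all genes. Atoh8, a helix-loop-helix factor gene, rose by log2 0.98 ± 0.15 with IgG (SE, edgeR adjusted p = 8.41e-05), and the inhibitor of DNA binding genes Id2 and Id3 by 0.75 ± 0.15 (0.000667) and 0.59 ± 0.10 (0.000363). Msx1, which overlaps the antisense gene Msx1as, rose by log2 0.73 ± 0.21 (0.0109). Of 7 proteases that cut propeptides or antagonists, 1 rose and 1 fell with IgG, beside 17.8% and 15.9% of all genes. Bmp1 rose by log2 0.33 ± 0.08 (0.00295) and Furin fell by 0.18 (SE 0.05, 0.0171). Pcsk6 at 0.24 (0.0618) and Tll1 at 1.21 (0.0703) were not called.

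**Figure D5:**
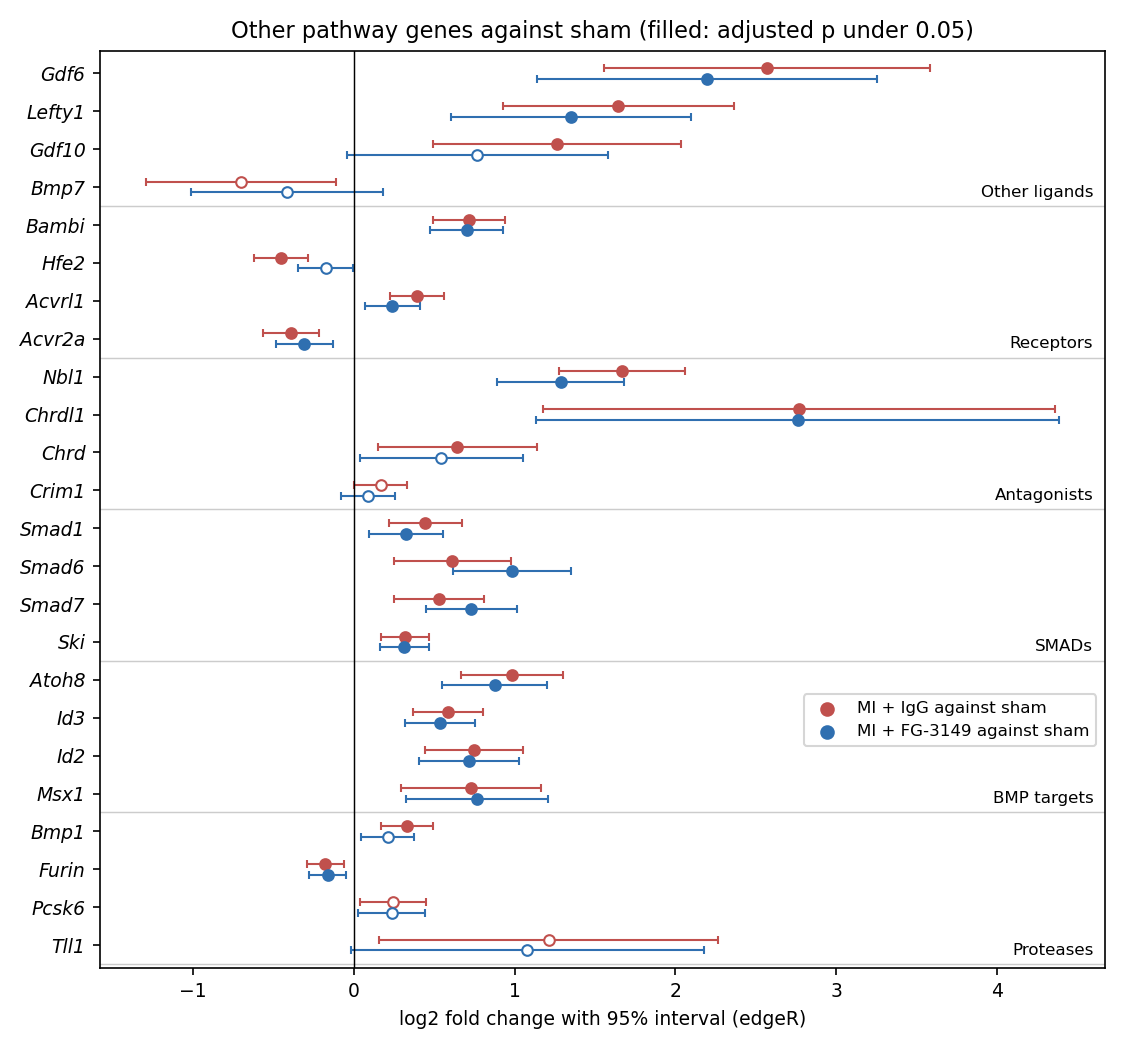
Log2 fold change against sham (x axis) with 95% interval from edgeR for 24 further pathway genes in MI + IgG (red) and MI + FG-3149 (blue), grouped by role. Filled points passed an adjusted p of 0.05. The genes drawn are the up to 4 of each list with the smallest p for IgG against sham, so filled red points follow from that choice. Id1 and Hey1, tested BMP targets not called with IgG, are not drawn.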

How the data were processed

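Gene, exon and transcript rows for 13 mouse ventricle libraries were used. Per the labels' protocols, libraries were made from 500 ng of total RNA with a stranded mRNA kit and sequenced as single reads of 75 bases. The authors deposited estimated counts for genes and exons and RPKM for transcripts; mm10 is named in the submitters' processing notes, and the counting tool and strand setting are not given in the sources used here. For RPKM the highest transcript of each gene was taken. Counts were rounded and tested with edgeR 4.0.16 (R 4.3.3): TMM, filterByExpr, robust quasi-likelihood fit over all 13 libraries, no covariates, Benjamini-Hochberg adjustment over 13434 genes, threshold 0.05. Intervals are 95% from the fit. Alternatives used DESeq2 1.42.0, limma 3.58.1, other filters, log2(RPKM + 1) and left-out libraries. The fit was also run on simulated counts with known changes. These lack the clock, tissue and read-position differences between libraries, and no result here rests on them. Replicate numbers are from the titles. Deviations from group means correlated at 0.145 to 0.282 for same-numbered IgG and FG-3149 libraries and at -0.100 to -0.005 for pairs with sham. Differently numbered libraries were not compared, so these values do not show that libraries were paired, and no label pairs them. The 10 genes and the lists were chosen with earlier results of these data known. Named pathway genes were up to 4 per list with the smallest p for IgG against sham.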

Additional observations from a re-analysis of the deposited data

How the results depend on the processing

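Precision is limited by 3 sham libraries and by low counts of Inhba and Mstn. Of the values for single genes, 451 kept direction and call, 19 lost a call, 3 gained one and 21 changed sign, and all 21 belonged to uncalled differences. For FG-3149 against IgG, the number of called genes was 144 in all and 282 with DESeq2, 247 on log2(RPKM + 1) with an RPKM filter, 83 with only those groups, 45 without IgG replicate 2 and FG-3149 replicate 3 together, 43 without the libraries with Arntl under 5 CPM, and 68 to 271 with each replicate left out. The cause was not tested. It was 0 of the 7 genes in every alternative, and 0 or 1 of the pathway genes: 1 with DESeq2, and 0 to 1 with each replicate left out. Without the libraries with Arntl under 5 CPM, 2536 genes were called for IgG against sham, 15 of them in the pathway, and 3 of the 7 genes for FG-3149 against sham, on fewer samples. On log2(RPKM + 1), 14 pathway genes were called for IgG against sham. With each replicate left out, 4 to 5 of the 7 genes were called in either comparison with sham.

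With the replicate block, 5, 0 and 4 of the 7 genes were called for IgG against sham, FG-3149 against IgG and FG-3149 against sham. The block ended the Inhba call for FG-3149 against sham (log2 1.27, adjusted p = 0.0587) and no other call among the 7 genes. It gave 215 called genes for FG-3149 against IgG.

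Signs changed as follows, all for uncalled differences on the log2 scale. With each replicate left out, FG-3149 against IgG ranged from -0.26 to 0.12 for Inhba, -0.27 to 0.094 for Inhbb, -0.37 to 0.031 for Gdf15 and -0.15 to 0.066 for Fstl3. The positive ends came without IgG replicate 2, except for Gdf15, where it came without FG-3149 replicate 3. Inhbb ranged from -0.041 to 0.26 for IgG against sham and from -0.11 to 0.17 for FG-3149 against sham. Without IgG replicate 2 and FG-3149 replicate 3 together, FG-3149 against IgG gave 0.21 for Inhba, 0.19 for Gdf15 and 0.13 for Fstl3, and Inhbb against sham gave -0.044 for IgG and -0.11 for FG-3149. Fstl3 was 0.049 without the libraries with Arntl under 5 CPM and 0.25 from exons 1 to 4. Inhbb for FG-3149 against sham was -0.0071 on log2(RPKM + 0.1) and -0.074 without the 5′ exon. The settings on the Arntl libraries, on both replicates together, on Fstl3 exons and on the 5′ exon were chosen after seeing the data.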
